A study of Homo sapiens with 12 samples.

Results

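ETS transcription factors share a DNA-binding domain, the ETS domain, and 10 of their genes were followed here: ETS1, ETS2, ELF1, ELF2, ELF3, ELF4, ETV4, ETV5, ERF and GABPA. They were chosen by gene symbol, with earlier results of these data known. Matched to the Ensembl identifiers of the count table, they make up 10 of its 60676 gene rows. ETS factors bind sites built around the letters GGAA, some as activators and some as repressors, and several of them are phosphorylated by the kinase ERK downstream of RAS. ELF3 and its relatives EHF and SPDEF are known from epithelia, ETV4 and ETV5 belong to the PEA3 group that follows RAS and ERK activity, and GABPA is a broadly expressed factor of housekeeping and mitochondrial genes.

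RNA of A549 cells, an established line of human lung adenocarcinoma, was sequenced in 12 libraries, 3 in each of 4 groups. Every group had received a lentivirus built on the plasmid pCDH-EF1a-PURO, either empty (Co.vec) or carrying LETS1, a long non-coding RNA named for enforcing TGF-β signalling. Each of these selected, pooled cultures was then given either the ligand's buffer or TGF-β, a cytokine that acts through SMAD proteins, at 5 ng/mL, and was harvested after 4 h. The groups are therefore Co.vec with buffer, Co.vec with TGF-β, LETS1 with buffer and LETS1 with TGF-β, and all of them carry the vector and its puromycin resistance gene. The labels call the replicates biological but do not say whether they came from separate transductions, so the p-values measure the spread between these libraries only. The level of LETS1 itself is not analysed here.

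Between 19705135 and 20351043 fragments per library were counted in genes, and each of the 10 ETS genes held between 313 and 4988 of them. Levels are given as CPM (counts scaled to a common library size, as edgeR defines them), and changes as log2 fold changes with their standard error (SE) from edgeR's quasi-likelihood test, with p-values adjusted by Benjamini-Hochberg over 16192 tested genes. A gene was taken to have changed at an adjusted p under 0.05. Of the epithelial markers 7 of 8 were tested, and their summed level ran from 8875 to 9579 CPM in Co.vec with buffer, 10050 to 11120 in Co.vec with TGF-β, 7110 to 7439 in LETS1 with buffer and 8783 to 9144 in LETS1 with TGF-β. This epithelial sum was carried by KRT8, KRT18 and KRT7 (means of 5615, 2419 and 937.3 CPM in Co.vec with buffer), so it follows mainly these genes. The 6 endothelial markers summed to at most 1.27 CPM and the 7 blood cell markers to at most 6.15 CPM in any library. No marker of these lists was at 0 counts in every library. The 6 fibroblast markers, carried by COL1A1, summed to between 13.9 and 24.4 CPM with buffer and between 121.6 and 151.9 CPM with TGF-β.

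Stretches of the promoters of 4 members are shown because these genes differ in what followed. ELF3 was the member that fell with TGF-β, ELF4 had the largest rise, ETS2 rose with both LETS1 and TGF-β, and GABPA passed the test in no comparison. The sequences are RefSeq's (GRCh38.p14), read 5′ to 3′ on the gene's strand, with a motif in capitals. In ELF3 (chr1:202010366-202010395, plus strand) the capitals mark CAGAC, a short core bound by SMAD proteins, 208 bases before a transcript start. In ELF4 (chrX:130110601-130110630, minus strand) they mark an AP-1 site, TGACTCA in its reverse complement, 121 bases before a start. In GABPA (chr21:25734894-25734923, plus strand) they mark a full ETS site, CCGGAAGT in its reverse complement, 67 bases before a start. By GENCODE's gene models, all 250 bases before the starts used for ELF3 and GABPA lie within annotated exons. For ELF4 97 of the 250 bases do, and the stretch shown lies inside the annotated gene. For ETS2 the 250 bases before a start (chr21:38804933-38805182, plus strand) are given in full, with no match to any motif searched.
ELF3: gggtgcgggatgaCAGACtctgacaatcat
ELF4: ccggcgccgaggTGAGTCAcgggcgcgggg
GABPA: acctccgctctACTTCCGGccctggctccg
ETS2: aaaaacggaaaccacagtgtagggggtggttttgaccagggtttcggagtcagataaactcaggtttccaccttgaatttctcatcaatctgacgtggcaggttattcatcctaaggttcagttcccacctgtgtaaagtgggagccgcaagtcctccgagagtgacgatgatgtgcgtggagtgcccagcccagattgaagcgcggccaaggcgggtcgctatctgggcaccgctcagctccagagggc

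The motifs were searched on both strands of windows running from 250 bases before to 50 bases after a transcript start, in 15 windows of 7 members (ETS2, ELF1, ELF2, ELF3, ELF4, ERF and GABPA) and in all 35116 windows of the table. The ETS site CCGGAAGT was found in 4.14% of all windows and, among the members, in GABPA alone. Its core CGGAAG, which the full site contains, was found in 19.5% of all windows and again in GABPA alone. CAGAC was found in 45.3% of all windows and in 5 of the 15 member windows, which belong to ELF1, ELF3, ELF4 and GABPA. The AP-1 site TGACTCA was found in 4.95% of all windows and in 1 window of ELF4. The SMAD palindrome GTCTAGAC (0.202% of all windows) and the cyclic AMP response element TGACGTCA (1.85%) were found in no member window. These matches describe letters only, and binding was not measured.

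TGF-β changed most of the family within 4 h. In Co.vec cells 5 of the 10 members rose (ETS1, ETS2, ELF1, ELF4 and ETV5), where 21.1% of all tested genes rose, and 1 fell (ELF3), where 18.6% fell. In LETS1 cells 6 rose (the same 5 and ETV4), against 19.7% of all tested genes, and 1 fell (ELF3), against 19.1%. The members' median log2 change was 0.12 in Co.vec and 0.20 in LETS1 cells, and that of all tested genes was -0.02 in both. Fewer members differed with LETS1: with buffer 1 was higher than in Co.vec (ETS2), where 8.57% of all genes were higher, and 2 were lower (ETV4 and ETV5), where 6.56% were lower. With TGF-β present in both arms 3 were higher in LETS1 cells (ETS2, ELF4 and ERF), against 7.58%, and 2 were lower (ELF3 and ETV4), against 6.5%. The members' medians in these comparisons were 0.04 and -0.01, and those of all genes were 0.01 and 0.00. The response to TGF-β itself differed between LETS1 and Co.vec cells for 1 member, ELF3, where 0.599% of all tested genes had a lower response in LETS1 cells and 0.0803% a higher one. The Co.vec buffer libraries serve as controls both for TGF-β and for LETS1 in buffer, so those comparisons are not independent of each other.

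**Figure D1:**
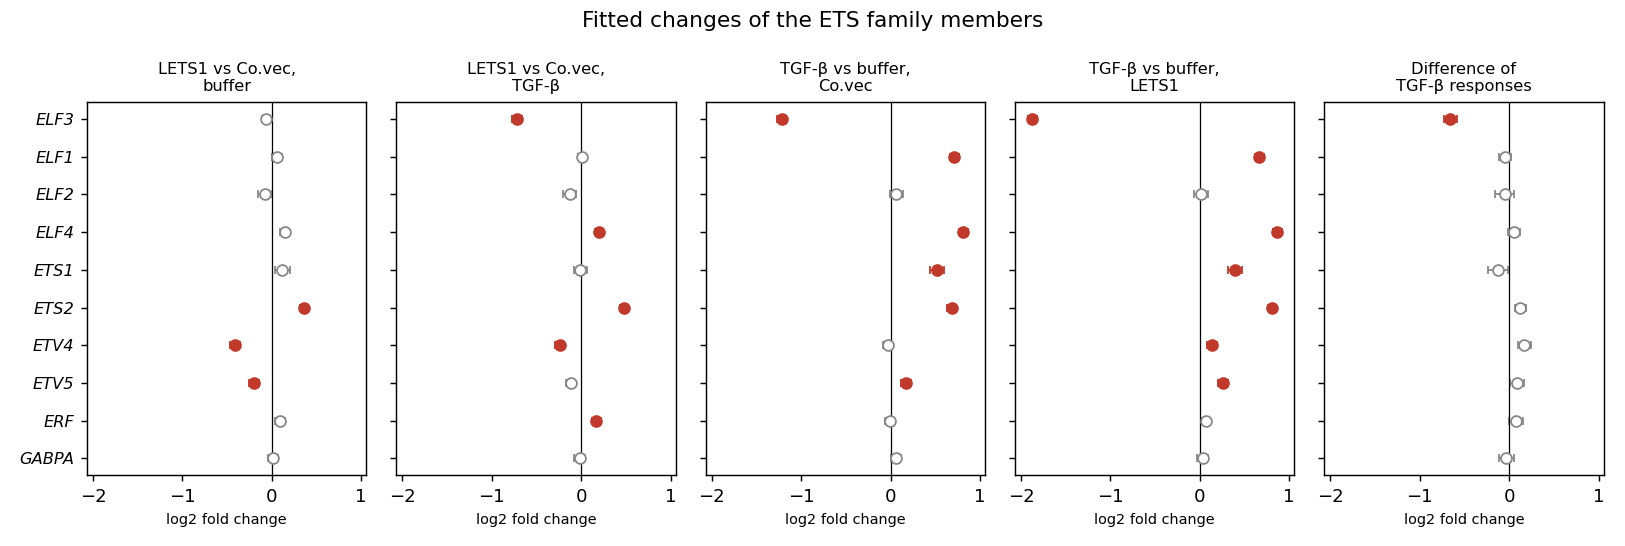
Fitted log2 fold changes (x axis) of the 10 ETS genes (y axis) in the 2 comparisons of LETS1 with Co.vec, the 2 of TGF-β with buffer, and the difference between the TGF-β responses. Points are fitted values with bars of 1 SE, filled red where the adjusted p was under 0.05; ELF3 lies furthest to the left in both TGF-β panels (-1.22 and -1.87) and is the only filled point in the last panel (-0.66).

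ELF3, an epithelial ETS factor that drives differentiation genes of simple epithelia, was the member that fell. In Co.vec cells with buffer its levels were 111.3, 115.4 and 118.7 CPM, and with TGF-β they were 47.4, 50.5 and 50.7 CPM. In LETS1 cells they were 105.8, 110.8 and 113.4 CPM with buffer, and 30.3, 30.2 and 29.6 CPM with TGF-β. The buffer groups overlap, while every LETS1 library with TGF-β lies below every Co.vec library with TGF-β, and these in turn lie below all 6 buffer libraries. TGF-β lowered ELF3 in Co.vec cells by a log2 change of -1.22 (SE 0.05, adjusted p = 1.82e-22 in edgeR's quasi-likelihood test, n = 3 a group) and in LETS1 cells by -1.87 (SE 0.05, adjusted p = 1.67e-27). ELF3 thus fell by 57.0% in Co.vec cells and fell by 72.7% in LETS1 cells. The difference between these responses was -0.66 (SE 0.07, adjusted p = 1.12e-07 for the interaction term). LETS1 against Co.vec gave -0.07 with buffer (adjusted p = 0.399) and -0.72 with TGF-β (SE 0.06, adjusted p = 4.95e-13). In bulk RNA, fewer cells expressing a gene and less RNA in each cell cannot be told apart.

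The 2 nearest relatives in tissue use, EHF and SPDEF, were also lower with TGF-β, but unlike ELF3 they were already lower in LETS1 cells with buffer. EHF, an ELF3 relative of epithelial cells, stood at 54.8, 51.1 and 51.7 CPM in Co.vec with buffer, 17.8, 19.0 and 18.02 in Co.vec with TGF-β, 22.9, 25.1 and 23.7 in LETS1 with buffer, and 8.25, 8.08 and 7.98 in LETS1 with TGF-β. SPDEF, known from secretory epithelial cells, stood at 52.0, 57.7 and 54.6 CPM, 32.6, 33.3 and 30.8 CPM, 23.8, 27.3 and 24.6 CPM, and 19.99, 21.0 and 19.4 CPM in the same order of groups. In neither gene do any of the 4 groups overlap. With buffer, LETS1 against Co.vec gave -1.14 for EHF (SE 0.06, adjusted p = 5.93e-18) and -1.12 for SPDEF (SE 0.06, adjusted p = 1.99e-17). TGF-β lowered EHF by a log2 change of -1.52 in Co.vec (adjusted p = 2.89e-22) and -1.56 in LETS1 cells (adjusted p = 1.69e-19), and the difference of -0.04 was not called (SE 0.10, adjusted p = 0.986). For SPDEF the fall was smaller in LETS1 cells than in Co.vec cells, -0.33 (adjusted p = 0.00023) against -0.77 (adjusted p = 1.35e-13). That difference, 0.44 (SE 0.09, adjusted p = 0.00787), has the opposite sign to that of ELF3, and it lost its call when the second LETS1 library with TGF-β was left out (0.41, adjusted p = 0.0548). ELF5, the remaining member of this epithelial branch, had 3 counts over all 12 libraries and was not tested. Of the 7 epithelial markers tested, 4 rose and 1 (CDH1, E-cadherin) fell with TGF-β in each cell type. Over all genes 21.1% rose and 18.6% fell in Co.vec, and 19.7% and 19.1% in LETS1 cells. With LETS1 in buffer 4 of the 7 markers were lower and 1 was higher, against 6.56% and 8.57% of all genes. KRT7 had a mean of 937.3 CPM in Co.vec and 1116 CPM in LETS1 cells with buffer. With TGF-β against buffer, CLDN4 went from 13.0 to 66.9 CPM in Co.vec and from 9.36 to 55.4 CPM in LETS1 cells. Of the rises in Co.vec, that of KRT18, a keratin, lost its call without any 1 of 4 Co.vec libraries (adjusted p from 0.0588 to 0.180) and in DESeq2 (adjusted p = 0.0503). KRT19, a simple epithelial keratin, was lower in LETS1 cells (-0.79 with buffer, adjusted p = 1.44e-15, and -0.68 with TGF-β, adjusted p = 1.49e-13).

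**Figure D2:**
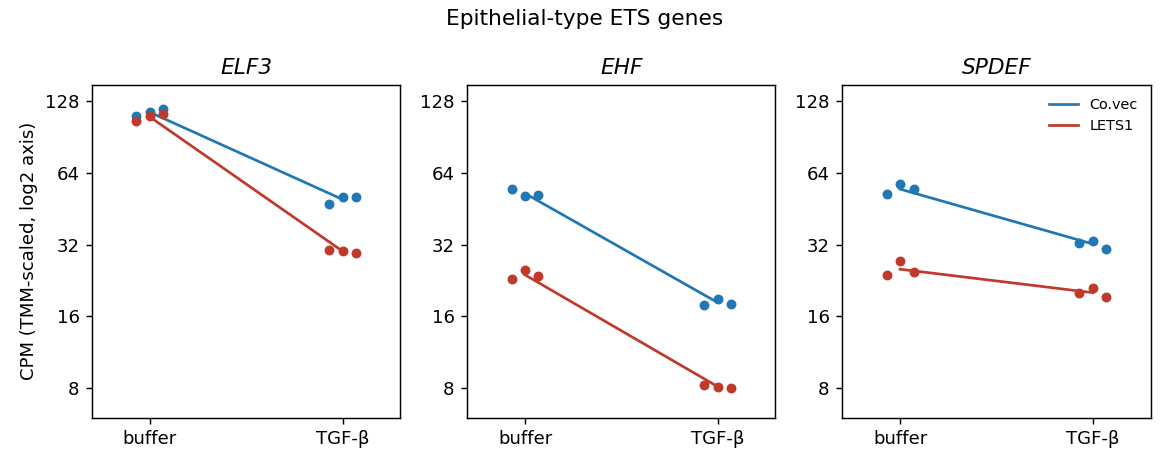
Levels of ELF3, EHF and SPDEF in CPM on a log2 axis (y), with buffer and with TGF-β (x), for Co.vec (blue) and LETS1 (red). Points are libraries and lines join group means; the ELF3 lines start together near 115.1 and 110.0 CPM and end apart at 49.5 and 30.01 CPM, the EHF lines run parallel, and the SPDEF lines draw nearer to each other.

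ELF1 and ELF4, closely related activators best known from blood and endothelial cells, rose with TGF-β in both cell types. ELF1 stood at 54.3, 51.9 and 49.99 CPM in Co.vec with buffer, 84.4, 84.6 and 87.2 with TGF-β, 56.1, 52.6 and 53.9 in LETS1 with buffer, and 83.6, 86.1 and 88.3 in LETS1 with TGF-β. The libraries with TGF-β all lie above those with buffer, and the Co.vec and LETS1 libraries overlap under either condition. The rise was 0.71 in Co.vec (SE 0.05, adjusted p = 4.10e-15) and 0.67 in LETS1 cells (SE 0.05, adjusted p = 2.74e-14), a difference of -0.05 (SE 0.07, adjusted p = 0.949). ELF4 stood at 55.7, 56.4 and 54.5 CPM in Co.vec with buffer, 95.4, 93.3 and 103.8 with TGF-β, 60.1, 59.8 and 64.3 in LETS1 with buffer, and 112.9, 110.1 and 112.7 in LETS1 with TGF-β. None of its 4 groups overlap. ELF4 rose by 0.81 in Co.vec (SE 0.05, adjusted p = 1.01e-16) and by 0.87 in LETS1 cells (SE 0.05, adjusted p = 8.22e-18), the largest rise with TGF-β among the 10 members in each. LETS1 against Co.vec gave 0.20 with TGF-β (SE 0.05, adjusted p = 0.00298) and 0.15 with buffer (SE 0.05, adjusted p = 0.0536). The latter was not called, although it was without the third Co.vec or the third LETS1 library with TGF-β (adjusted p = 0.0426 and 0.0460). Neither of these libraries belongs to the buffer comparison, and leaving out other single libraries took its adjusted p as high as 0.264. Of the markers of those cells, 0 of 6 endothelial and 2 of 7 blood cell markers (CD14 and ITGAM) had enough counts to be tested.

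ELF2, a further gene of this branch, did not pass the test in any comparison. It ran from 17.8 to 21.1 CPM over the 12 libraries, and the groups overlapped in each of the 4 comparisons of LETS1 with Co.vec or of TGF-β with buffer. Its log2 changes in these lay between -0.13 and 0.07 (SE 0.075 to 0.076), with the lowest adjusted p at 0.289. Changes of this size were not called, and no limit of detection was computed.

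ETS2, an ERK-responsive activator, was the only member that rose with TGF-β and was also higher with LETS1 under both conditions. It stood at 113.3, 110.3 and 107.0 CPM in Co.vec with buffer and 181.0, 168.4 and 181.7 with TGF-β. In LETS1 cells it stood at 142.1, 133.0 and 148.1 CPM with buffer and 246.6, 250.2 and 244.7 with TGF-β. The 4 groups form a ladder without overlap, from Co.vec with buffer, through LETS1 with buffer and Co.vec with TGF-β, to LETS1 with TGF-β. LETS1 against Co.vec gave 0.36 with buffer (SE 0.05, adjusted p = 1.70e-07) and 0.48 with TGF-β (SE 0.04, adjusted p = 7.11e-11). TGF-β against buffer gave 0.68 in Co.vec (SE 0.05, adjusted p = 1.41e-15) and 0.81 in LETS1 cells (SE 0.05, adjusted p = 4.04e-18). ETS2 thus stood 1.28-fold and 1.40-fold higher with LETS1. The difference between the TGF-β responses, 0.13 (SE 0.06, adjusted p = 0.664), was not called, so on the log2 scale no departure from adding the LETS1 and TGF-β changes was detectable.

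ETS1, the founding member and paralog of ETS2, rose with TGF-β but not with LETS1. Its levels were 19.6, 18.1 and 15.7 CPM in Co.vec with buffer, 27.0, 27.3 and 22.4 with TGF-β, 19.1, 18.9 and 19.9 in LETS1 with buffer, and 25.3, 24.4 and 26.5 in LETS1 with TGF-β. Libraries with TGF-β lie above those with buffer in each cell type, and the third Co.vec library is the lowest of its group under either condition. The rise was 0.52 in Co.vec (SE 0.08, adjusted p = 1.07e-06) and 0.40 in LETS1 cells (SE 0.08, adjusted p = 7.58e-05). LETS1 against Co.vec gave 0.12 with buffer (SE 0.08, adjusted p = 0.399) and -0.01 with TGF-β (SE 0.08, adjusted p = 0.965).

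**Figure D3:**
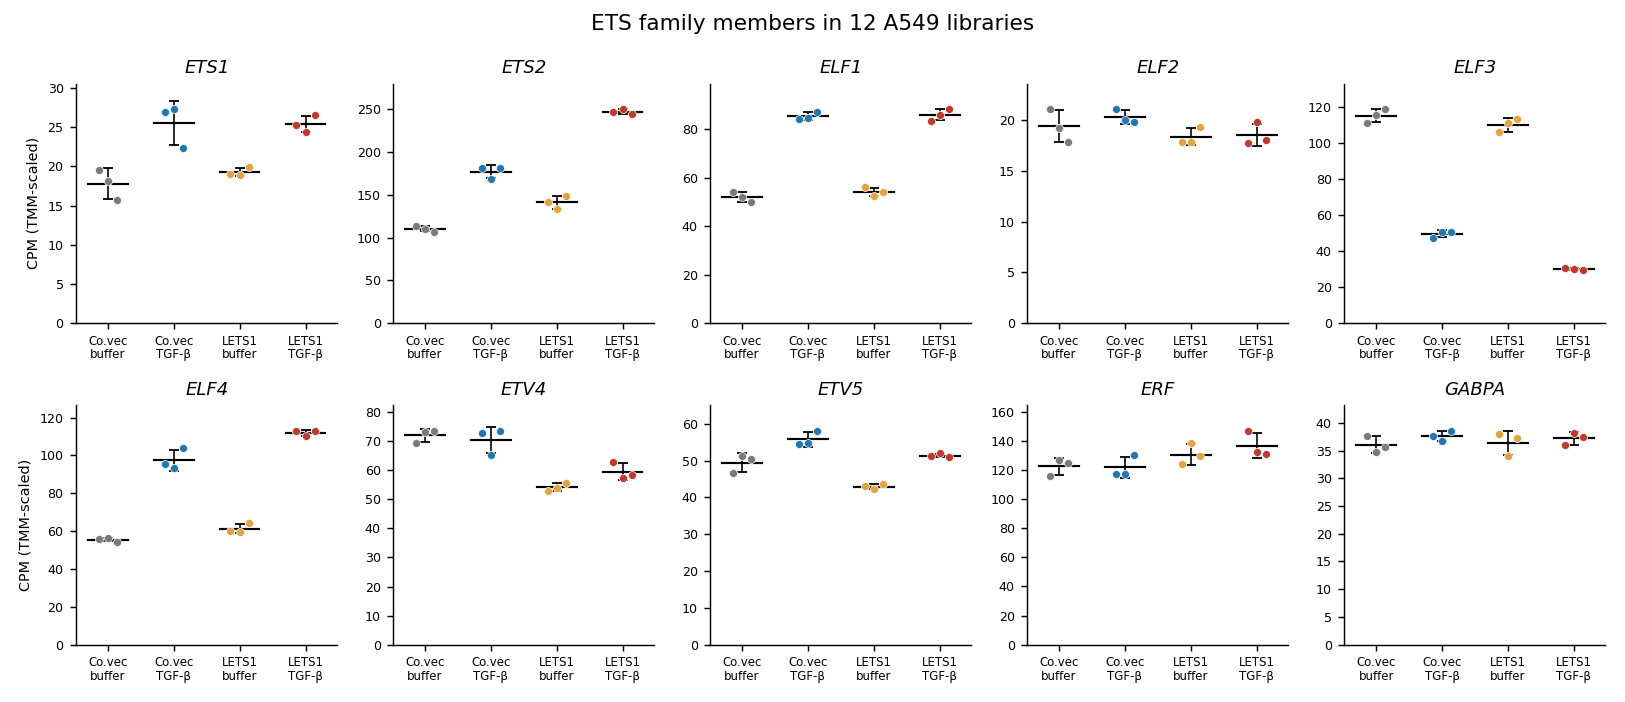
Level of each of the 10 ETS genes in CPM (y axis, starting at 0) in the 4 groups (x axis). Each point is 1 library, horizontal lines are group means and bars are 1 SD (n = 3); ELF3 is the one panel whose TGF-β groups drop, to 49.5 and 30.01 CPM, ETS2 climbs in steps to 247.2 CPM, and ELF2 and GABPA show overlapping groups in every comparison tested.

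ETV4 and ETV5, the PEA3-group activators expressed downstream of RAS and ERK, were lower in LETS1 cells. ETV4 stood at 69.4, 73.2 and 73.5 CPM in Co.vec with buffer, 72.7, 65.1 and 73.4 with TGF-β, 53.0, 53.7 and 55.7 in LETS1 with buffer, and 62.9, 57.3 and 58.5 in LETS1 with TGF-β. All 6 LETS1 libraries lie below all 6 Co.vec libraries. LETS1 against Co.vec gave -0.41 with buffer (SE 0.05, adjusted p = 1.77e-07) and -0.24 with TGF-β (SE 0.05, adjusted p = 0.00123), so ETV4 fell by 24.8% and fell by 15.4%. ETV5 stood at 46.6, 51.3 and 50.4 CPM in Co.vec with buffer, 54.4, 54.8 and 58.0 with TGF-β, 43.0, 42.2 and 43.6 in LETS1 with buffer, and 51.2, 51.9 and 51.0 in LETS1 with TGF-β. Its LETS1 libraries lie below the Co.vec libraries of the same condition. For ETV5 LETS1 against Co.vec gave -0.20 with buffer (SE 0.05, adjusted p = 0.00727) and -0.12 with TGF-β (SE 0.05, adjusted p = 0.149, not called). The buffer call was lost without the second Co.vec buffer library (-0.18, adjusted p = 0.0605).

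With TGF-β the pair moved little. ETV5 rose by 0.17 in Co.vec (SE 0.05, adjusted p = 0.00877) and by 0.26 in LETS1 cells (SE 0.05, adjusted p = 0.000175). The Co.vec rise lost its call without the first Co.vec buffer library (0.13, adjusted p = 0.0701). ETV4 gave -0.03 in Co.vec (SE 0.05, adjusted p = 0.668) and rose by 0.14 in LETS1 cells (SE 0.06, adjusted p = 0.0446). That last call is fragile: it was lost with the replicate number as a block (adjusted p = 0.0534), with DESeq2 (adjusted p = 0.0544), and without the first or the second LETS1 buffer library or the first LETS1 library with TGF-β (adjusted p = 0.137, 0.0891 and 0.190).

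ETV1, the remaining PEA3-group gene, fell with TGF-β where ETV5 rose. It stood at 23.2, 21.4 and 20.7 CPM in Co.vec with buffer, 13.2, 15.8 and 16.8 with TGF-β, 17.1, 15.1 and 16.5 in LETS1 with buffer, and 13.5, 11.6 and 12.2 in LETS1 with TGF-β. LETS1 against Co.vec gave -0.42 with buffer (SE 0.08, adjusted p = 0.000185) and -0.30 with TGF-β (SE 0.09, adjusted p = 0.0222). The groups with TGF-β overlap, and that call was lost without the second or the third Co.vec library with TGF-β (adjusted p = 0.0803 and 0.139) or the second or the third LETS1 library with TGF-β (0.123 and 0.0679). TGF-β against buffer gave -0.51 in Co.vec (adjusted p = 3.27e-06) and -0.39 in LETS1 cells (adjusted p = 0.000556). CIC, a repressor of the PEA3-group genes, was higher in LETS1 cells with buffer, at 188.5, 194.4 and 189.0 CPM against 165.6, 170.4 and 160.0 CPM (0.21, SE 0.05, adjusted p = 0.00275). In the presence of TGF-β, LETS1 against Co.vec gave 0.07 for CIC (SE 0.05, adjusted p = 0.436, not called), and the groups overlapped. That comparison was called only without the third Co.vec library with TGF-β (0.14, adjusted p = 0.0495). With TGF-β CIC was lower than with buffer, by -0.16 in Co.vec (adjusted p = 0.0103) and by -0.30 in LETS1 cells (adjusted p = 5.78e-06). The Co.vec call was lost without the second Co.vec buffer library (adjusted p = 0.0855) or without the first or the second Co.vec library with TGF-β (0.155 and 0.0725). Whether CIC had a part in the levels of ETV1, ETV4 and ETV5 was not tested.

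**Figure D4:**
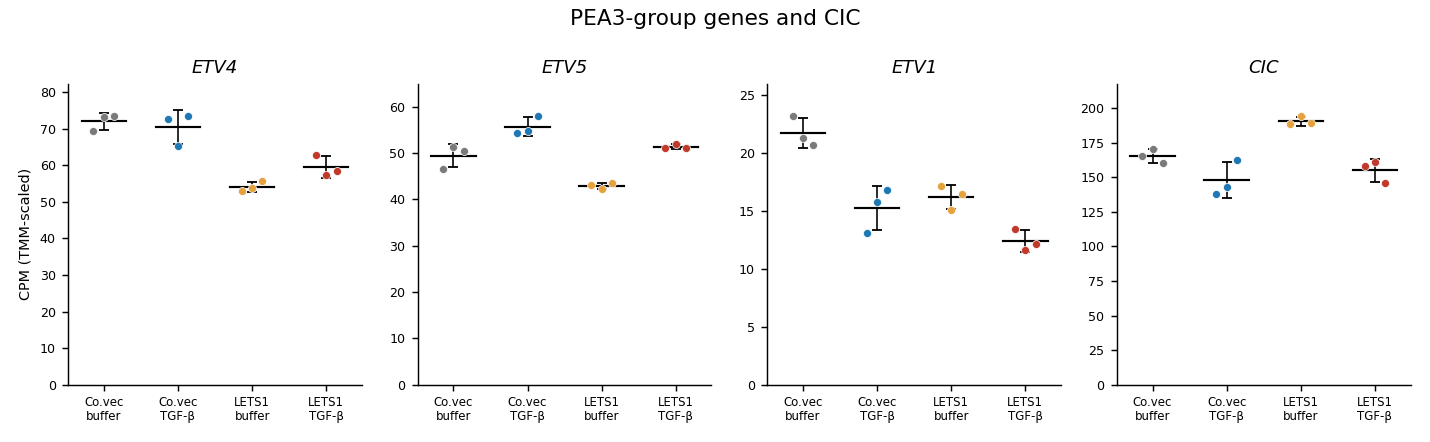
Levels in CPM (y axes, starting at 0) of the PEA3-group genes ETV4, ETV5 and ETV1 and of their repressor CIC in the 4 groups (x axis). Points are libraries, lines are means and bars are 1 SD (n = 3). With buffer the 3 ETV genes are lower in LETS1 than in Co.vec cells while CIC is higher (190.7 against 165.3 CPM). With TGF-β the CIC groups overlap (155.0 CPM in LETS1 and 147.9 in Co.vec cells).

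ERF, a repressor that ERK phosphorylation sends out of the nucleus, passed the test in 1 comparison and GABPA in none. ERF stood at 115.8, 126.6 and 125.1 CPM in Co.vec with buffer, 117.4, 117.6 and 130.2 with TGF-β, 124.0, 138.3 and 129.4 in LETS1 with buffer, and 146.8, 132.3 and 131.2 in LETS1 with TGF-β. LETS1 against Co.vec with TGF-β gave 0.17 (SE 0.05, adjusted p = 0.0244), the single call for ERF. It rests on a narrow gap between the groups and was lost without the first or the second Co.vec library with TGF-β (adjusted p = 0.143 and 0.134) or the first LETS1 library with TGF-β (adjusted p = 0.234). GABPA, whose promoter sequence above carries an ETS site, ran from 34.0 to 38.5 CPM over the 12 libraries with all groups overlapping. Its log2 changes with LETS1 or with TGF-β lay between -0.02 and 0.06 with SE 0.06, and the lowest adjusted p was 0.432. The difference between its TGF-β responses was -0.03 (SE 0.08, adjusted p = 0.982).

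Per kilobase of exon, ERF was the most abundant member with buffer and ETS2 in LETS1 cells with TGF-β. This scale divides CPM by the length of all annotated exons of a gene merged, and allows levels to be compared between genes. In Co.vec with buffer the order was ERF at 37.2 CPM per kilobase, ETS2 at 24.0, ETV4 at 19.97, ELF3 at 16.01, ELF4 at 12.9, ELF1 at 12.01, ETV5 at 8.52, GABPA at 6.64, ETS1 at 2.49 and ELF2 at 2.27, and only the last 2 overlap. In LETS1 with TGF-β the order was ETS2 at 53.8 CPM per kilobase, ERF at 41.5, ELF4 at 25.9, ELF1 at 19.8, ETV4 at 16.5, ETV5 at 8.85, GABPA at 6.85, ELF3 at 4.17, ETS1 at 3.55 and ELF2 at 2.17, with no overlap between neighbours. ELF3 thus went from rank 4 to rank 8, and in Co.vec with TGF-β it overlapped with GABPA (6.89 and 6.94 CPM per kilobase). In that group ETS2 and ERF also overlapped (38.5 and 37.0), as did ELF1 and ETV4 (19.7 and 19.5), and in LETS1 with buffer ELF3, ETV4 and ELF4 did (15.3, 15.0 and 14.2). The order depends on the exon model: with the length of the principal transcript alone, a setting chosen after seeing the data and available for 7 members, ETV4 passed ETS2 in Co.vec with buffer (29.7 against 28.0 CPM per kilobase) and ELF3 stood at 23.1. In Co.vec with TGF-β that scale put ERF at 45.1 and ETS2 at 44.98, the reverse of their order above.

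Over the 12 libraries, which share 4 groups, ETS2, ELF1 and ELF4 followed each other. The Pearson correlation of log2 CPM, given as a description, was 0.979 between ELF1 and ELF4, 0.949 between ETS2 and ELF4 and 0.886 between ETS2 and ELF1, and ELF3 ran against them at -0.977 with ELF4 and -0.954 with ETS2. ETS1 was at 0.836 to 0.922 with these risers, and ETV5, which also rose, was at 0.402 with ETS2, 0.533 with ETS1, 0.650 with ELF4 and 0.720 with ELF1. ETV4 and ETV5 were at 0.697. Among 13821 genes, the pair most like ELF3 was NR0B1 (r = 0.994) and TOB1 (0.991), and TOB1 went from 186.0 CPM to 78.9 in Co.vec and from 184.3 to 60.2 in LETS1 cells. NAV1 (0.995) and RASGRF2 (0.994), the pair most like ETS2, showed the same ladder, with NAV1 at 27.2, 41.8, 62.9 and 96.3 CPM in Co.vec with buffer, LETS1 with buffer, Co.vec with TGF-β and LETS1 with TGF-β. The nearest genes of the other risers were TMC7 (0.998) and CHD9 (0.997) for ELF1, CYP26B1 (0.997) and SLC7A1 (0.995) for ELF4, and AKAP12 (0.972) and SAMD8 (0.971) for ETS1. ETV4 was nearest to TP53I11 (0.963) and DAP (0.957), and ETV5 to ITGB5 (0.963) and OSBPL7 (0.960). The members that moved least had weaker neighbours: TMEM115 (0.955) and PUF60 (0.944) for ERF, RMND5A (0.907) and UNC13A (0.884) for ELF2, and BTAF1 (0.885) and RNF169 (0.873) for GABPA.

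Beyond the 10 members, 18 further ETS genes were looked up and 9 had enough counts to be tested. FEV, ETV3L and SPIC had 0 counts, and ERG, FLI1, ELF5, SPI1, SPIB and ETV7, mostly genes of blood or endothelial cells, had 3 to 44 counts over all libraries. With TGF-β 4 of the 9 rose and 3 fell in each cell type (all genes: 21.1% and 18.6% in Co.vec, 19.7% and 19.1% in LETS1 cells), the 3 being EHF, SPDEF and ETV1. ELK3, a ternary complex factor that can repress, rose from 63.1, 60.1 and 57.9 CPM to 177.3, 167.6 and 160.8 in Co.vec (1.48, SE 0.05, adjusted p = 7.08e-25) and by 1.54 in LETS1 cells (SE 0.05, adjusted p = 1.91e-25). No member rose as much. ETV3, a repressor related to ERF, rose by 0.92 (adjusted p = 3.02e-15) and 0.68 (adjusted p = 7.25e-12), and ETV6, another repressor, by 0.36 (adjusted p = 1.82e-05) and 0.39 (adjusted p = 6.46e-06). Thus the repressors ELK3, ETV3 and ETV6 rose with TGF-β where ERF gave -0.01 and 0.07 (adjusted p = 0.918 and 0.327). With LETS1, 1 of the 9 was higher and 3 were lower under either condition (all genes: 8.57% and 6.56% with buffer, 7.58% and 6.5% with TGF-β). The higher gene with buffer was ETV3 (0.26, adjusted p = 0.00467), lost without the first LETS1 buffer library (0.21, adjusted p = 0.0570), and with TGF-β it was ELK1 (0.18, adjusted p = 0.0367). The ELK1 call was lost with DESeq2 (adjusted p = 0.0586), with only the 2 groups fitted (0.0520), without the second Co.vec buffer library (0.0537), and without the first or the second library with TGF-β of Co.vec (0.212 and 0.180) or of LETS1 cells (0.236 and 0.0831).

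Of 22 partners and regulators of ETS factors, 9 rose with TGF-β in each cell type, where 21.1% and 19.7% of all genes rose, and 2 fell in Co.vec and 4 in LETS1 cells, where 18.6% and 19.1% fell. The medians were 0.01 and 0.05. Of the 4 falls in LETS1 cells, those of DET1 and SPOP were not called by DESeq2 (adjusted p = 0.107 and 0.0618). Both calls were also lost without the filter and without any of several single libraries. SRF, the partner of ternary complex factors such as ELK1, rose by 0.83 (adjusted p = 3.11e-14) and 0.65 (adjusted p = 1.00e-11), and was higher in LETS1 cells with buffer (0.34, adjusted p = 0.000119). GABPB1, a transactivating partner of GABPA, rose by 0.64 (adjusted p = 4.18e-10) and 0.46 (adjusted p = 4.37e-07). GABPB2, its paralog, fell by 0.33 (adjusted p = 0.00845) and fell by 0.34 (adjusted p = 0.00454), the former call being lost without the first Co.vec buffer library (adjusted p = 0.0667). The partner subunits of GABPA thus moved while GABPA itself did not pass the test. ATXN1, which binds CIC, rose by 0.53 (adjusted p = 4.68e-07) and 0.63 (adjusted p = 1.41e-08). HIPK2, a kinase of transcription regulators, was lower in LETS1 cells under both conditions (-0.25 and -0.25, adjusted p = 0.000218 and 0.000248).

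A list of 15 genes linked to ERK, the kinase upstream of several ETS factors, was tested and is called ERK feedback genes here. It holds DUSP, SPRY and SPRED genes, and also PHLDA1, IER3, EPHA2, EPHA4, CCND1 and FOSL1, which are not all feedback inhibitors. This list, like the others, was chosen with earlier results of these data known, so its counts are a description only. With buffer 9 were higher and 3 lower in LETS1 than in Co.vec cells, against 8.57% and 6.56% of all genes, and with TGF-β 3 were higher and 2 lower, against 7.58% and 6.5%. The medians were 0.38 and -0.04. With TGF-β against buffer, 11 rose and 2 fell in Co.vec (21.1% and 18.6% of all genes), and 10 rose and 4 fell in LETS1 cells (19.7% and 19.1%). FOSL1, an AP-1 subunit induced by ERK, stood at 19.6, 22.2 and 20.04 CPM in Co.vec with buffer and 35.6, 39.5 and 43.8 in LETS1 with buffer, a change of 0.94 (SE 0.08, adjusted p = 7.20e-12). With TGF-β it stood at 44.8, 37.6 and 36.7 CPM in Co.vec and 46.4, 44.5 and 45.4 in LETS1 cells (0.20, adjusted p = 0.0581). That difference was not called, but it was without the filter (adjusted p = 0.0261) and with only the groups compared (0.0480). It was also called without the first Co.vec library with TGF-β (0.00541) or the first or the third LETS1 buffer library (0.0456 and 0.0441). SPRED1, an inhibitor of RAS signalling, was lower in LETS1 cells (-0.43 with buffer, adjusted p = 1.04e-06, and -0.28 with TGF-β, adjusted p = 0.000575). In 5 of the 15 genes, against 0.599% of all genes, the TGF-β response was lower in LETS1 cells than in Co.vec cells, among them FOSL1 (-0.75, adjusted p = 2.72e-05), IER3 (-0.69, adjusted p = 0.000727) and DUSP5 (-0.58, adjusted p = 3.61e-05). This count was 3 without the third LETS1 buffer library or the second LETS1 library with TGF-β. In the buffer comparison of LETS1 with Co.vec the PEA3-group members ETV4 and ETV5 were lower while the genes of this mixed list were mostly higher. The 3 lower genes of the list were SPRY1, SPRED1 and CCND1.

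Of 21 genes with promoters described as ETS-driven, 17 were tested. With TGF-β 12 rose and 4 fell in Co.vec cells (21.1% and 18.6% of all genes), with a median of 0.91, and 12 rose and 5 fell in LETS1 cells (19.7% and 19.1%), with a median of 0.56. ITGA2, an integrin subunit, rose by 1.62 (adjusted p = 1.22e-09) and 1.52 (adjusted p = 2.57e-09). TGFBR2, the type II TGF-β receptor, fell by 0.82 (adjusted p = 2.75e-19) and fell by 0.78 (adjusted p = 2.01e-18). TERT, the catalytic subunit of telomerase, fell by 1.15 in Co.vec and fell by 1.15 in LETS1 cells (adjusted p = 0.000192 and 0.000131), from at most 3.17 CPM. In LETS1 cells 5 of the 17 were higher and 1 lower with buffer (8.57% and 6.56% of all genes), and 6 were higher and 2 lower with TGF-β (7.58% and 6.5%). CCN1, a matrix-associated protein, stood at 30.8, 35.4 and 34.7 CPM in Co.vec with buffer, 102.1, 106.2 and 87.7 with TGF-β, 74.2, 80.4 and 81.0 in LETS1 with buffer, and 113.6, 117.2 and 115.5 in LETS1 with TGF-β. Its TGF-β response was smaller in LETS1 cells by a log2 difference of -0.997 (SE 0.08, adjusted p = 3.40e-10).

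Target genes of GABPA, which serve mostly mitochondrial functions, numbered 18, all tested. Of these, edgeR called 0 with LETS1 in buffer, against 8.57% higher and 6.56% lower over all genes. In that comparison 1 had an unadjusted p under 0.05 and DESeq2 called 0. With LETS1 in the presence of TGF-β 2 were higher, where 7.58% of all genes were, and with TGF-β 1 rose in Co.vec (21.1% of all genes) and 3 in LETS1 cells (19.7%). The gene called in Co.vec was GABPB1, which is also listed above as a partner. Medians over this list were between -0.01 and 0.06 in the 5 comparisons.

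Some reads of the members cannot be assigned with certainty. The counting's strand setting is not given in the sources used here, which touches genes on opposite strands. Reads within exons shared by genes on the same strand are ambiguous whatever that setting. ELF3 shares 664 bases, 9.23% of its exon length, with ELF3-AS1 on the opposite strand, and the same number with AL691482.3 on its own strand, which had 0 to 13 counts in a library. ELF3-AS1 stood at 3.43 CPM in Co.vec with buffer and fell with TGF-β by -1.23 in Co.vec (SE 0.18, adjusted p = 7.66e-07) and by -1.06 in LETS1 cells (SE 0.20, adjusted p = 2.88e-05), so ELF3 and ELF3-AS1 both fell, at levels far apart. The difference of its responses was 0.17 (SE 0.28, adjusted p = 0.957). ETV4 shares 1.89% of its exon length with DHX8, ELF1 3.85% with WBP4, ETV5 2.83% with DGKG, on the same strand, and GABPA 7.61% with ATP5PF. Of these, DHX8 alone was called, rising with TGF-β by 0.14 (adjusted p = 0.0200) and 0.17 (adjusted p = 0.00332). Reads from ELF2 and GABPA could also fall to their pseudogenes, which stood at no more than 0.102 CPM on average in any group. Fragments without a unique alignment (1.99% to 2.29% a library) were counted in no gene, so these levels do not show reads lost that way.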

How the data were processed

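Per the submitters' processing notes, reads were checked with FastQC, trimmed with cutadapt 2.10, aligned with STAR 2.7.5a and counted with HTSeq 0.12.4 on GRCh38; neither the annotation release nor the strand setting is given in the sources used here. The values deposited by the authors are raw counts of fragments per gene in 60676 rows; a further 5 rows name no gene (18.9% to 20.0% of fragments, 10.1% to 10.9% ambiguous) and stayed out of library sizes and tests. Symbols came from a name table (60357 matched), exon lengths and overlaps from GENCODE on GRCh38, and promoters from RefSeq.

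Genes were kept with filterByExpr (16192) and fitted over all 12 libraries with edgeR 4.0.16 in R 4.3.3 (TMM, robust quasi-likelihood, 1 mean per group, 3 libraries a group). The contrasts were LETS1 against Co.vec with either ligand condition, TGF-β against buffer in either cell type, and the interaction (the response of LETS1 cells minus that of Co.vec cells). Benjamini-Hochberg adjustment ran within each contrast, and SE is the log2 change over the square root of F. The scripts were tested on simulated counts. Chi-square per degree of freedom between replicates ran from 2.16 to 5.24, so no library was a copy of another.

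The members and lists were chosen with earlier results of these data known. All members were named. Genes of the other lists were mostly taken from the called genes with the largest changes, up to 3 a direction and comparison, but not all of these are described. Among those left out are HGF, MMP3, ITGB3, SPRY1, EPHA4 and SPRY4, some with larger changes than the genes described. The 2 genes nearest to a member by Pearson r of log2 CPM were taken among those with a mean of at least 1.0 CPM. Alternatives were DESeq2 1.42.0, its size factors, no filter, only the groups compared, the replicate number as a block, and leaving out each library. Principal transcript lengths were added after seeing the data.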

Additional observations from a re-analysis of the deposited data

Results flagged for a closer look

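In 9 genes of the lists and markers followed here the response to TGF-β differed between LETS1 and Co.vec cells. The call came from edgeR's quasi-likelihood test of the difference itself (adjusted p under 0.05). Over all 16192 tested genes, 97 (0.599%) had a lower response in LETS1 cells and 13 (0.0803%) a higher one. Among the 10 ETS members it was ELF3, with a log2 difference of -0.66, a deeper fall in LETS1 cells. Among the other ETS genes it was SPDEF, at 0.44, a shallower fall in LETS1 cells, whose call was lost without the second LETS1 library with TGF-β (adjusted p = 0.0548). Of the ERK feedback genes it was DUSP4 (-0.26), DUSP5 (-0.58), SPRY2 (-0.57), IER3 (-0.69) and FOSL1 (-0.75). DUSP4 rested on many single libraries: its call was lost with the replicate number as a block (adjusted p = 0.0691) and without any of 6 libraries in turn (adjusted p from 0.05002 to 0.231). SPRY2 lost its call without the third LETS1 buffer library (adjusted p = 0.0653) or the second LETS1 library with TGF-β (adjusted p = 0.0503). CCN1, with a promoter described as ETS-driven, was at -1.0. COL1A1, a collagen gene listed as a fibroblast marker, was at -0.4, and its call was lost without the second Co.vec buffer library (adjusted p = 0.0639), the third LETS1 buffer library (adjusted p = 0.218) or the third LETS1 library with TGF-β (adjusted p = 0.0590). Groups of 3 were not tested for a library far from the others, and the calls without each library are given here and with the processing.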

How the results depend on the processing

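Each alternative was run on every count and member, except that only the groups compared cannot be fitted for the interaction. The number of members called stayed within 1.5 times in all that were run: leaving out 1 library gave 2 to 4 members for LETS1 in buffer, 4 to 5 for LETS1 with TGF-β, 5 to 6 for TGF-β in Co.vec, 6 to 7 for TGF-β in LETS1 cells and 1 for the interaction. For ELF3 that interaction ran from -0.69 to -0.63. Members that turned sign were not called in either setting. Without the filter ERF with TGF-β in Co.vec gave 0.0051 and GABPA with LETS1 in buffer gave -0.0003. Leaving out 1 library, LETS1 against Co.vec with TGF-β ran from -0.0959 to 0.0388 for ETS1, from -0.008 to 0.0254 for ELF1 and from -0.0384 to 0.0026 for GABPA. In the same way TGF-β in LETS1 cells ran from -0.0345 to 0.0545 for ELF2 and from -0.008 to 0.0633 for GABPA, and TGF-β in Co.vec ran from -0.0588 to 0.03 for ETV4 and from -0.0541 to 0.027 for ERF. LETS1 in buffer ran from -0.0172 to 0.0586 for GABPA, and the interaction from -0.113 to 0.0022 for ELF2 and from -0.0782 to 0.0 for GABPA.

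Small list counts moved more. GABPA targets with LETS1 in buffer were 1 without the filter and 1 with only the groups compared (0 to 1 leaving out a library); with LETS1 and TGF-β they were 1 without the filter, 1 with only the groups compared and 1 with DESeq2 (0 to 2); with TGF-β in Co.vec they were 2 with DESeq2's size factors and 2 with DESeq2 (1 to 3). ETS-driven promoter genes of the interaction were 2 without the filter (1 to 4, the 4 without the third Co.vec library with TGF-β). Leaving out a library gave 2 to 4 other ETS genes, 1 to 2 partners and 3 to 7 ERK feedback genes for LETS1 with TGF-β, and 0 to 1 other ETS genes and 3 to 6 ERK feedback genes for the interaction. The cause was not tested.

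No deviation shared by libraries of the same replicate number was detected (18 correlations of deviations, from -0.0573 to 0.0472). This cannot exclude that the numbers mark a shared culture or day. With the replicate number as a block, GABPA targets with LETS1 and TGF-β were 1 and ETV4 with TGF-β in LETS1 cells gave 0.14 (adjusted p = 0.0534 in edgeR); the block moved no other count by over 1.5 times and no other call of a member. Depth limits ERG, FLI1, ELF5, SPI1, SPIB and ETV7, which had too few counts to test.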
